A study of Mus musculus with 6 samples.

Results

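The genes described are those that encode enzymes of xenobiotic metabolism, chosen by name: protein-coding genes whose symbol marks a cytochrome P450 (Cyp), flavin-containing monooxygenase (Fmo), aldehyde dehydrogenase (Aldh), epoxide hydrolase (Ephx), UDP glycosyltransferase (Ugt) or sulfotransferase (Sult), together with Tst and Mpst, the sulfurtransferases that handle cyanide. There were 178 such genes among 52636 in the count table, of which 22027 were protein-coding. They were measured in vestibular sensory epithelium from male mice of the 129S1/SvImJ strain, 2 to 4 months old, by bulk RNA-seq. The IDPN group (n = 3) drank water with 30 mM 3,3'-iminodipropionitrile, a compound toxic to hair cells (HCs), during 8 weeks, and the Control group (n = 3) had no additive in its water. Every library was made from a single animal by joining its 2 utricles and 6 cristae, so HCs, supporting cells, nerve endings and connective tissue were read together, and a lower value for a gene can mean fewer cells that express it or less RNA per cell, which cannot be told apart. All libraries belong to 1 batch in the labels. The Control animals carry identity codes of a stem that is not found in the IDPN animals, and whatever goes with it cannot be told apart from the exposure.

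As background, phase I enzymes (Cyp, Fmo, Aldh, Ephx) oxidise or hydrolyse foreign and endogenous compounds, and phase II enzymes (Ugt, Sult) couple them to sugar or sulfate. IDPN is a nitrile, and P450 oxidation of the carbon beside a nitrile group can free cyanide, which thiosulfate sulfurtransferase (Tst, rhodanese) and mercaptopyruvate sulfurtransferase (Mpst) turn into thiocyanate. The same families also have endogenous roles: Aldh1a enzymes make retinoic acid and Cyp26 enzymes remove it, which patterns the vestibular epithelium, and several P450s belong to sterol synthesis and turnover.

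Of the 178 genes, 87 had 0 counts in every library and 91 had at least 1 count. DESeq2 gave an adjusted p (Padj) for 65, and 62 had 10 or more counts in at least 3 libraries. All 178 together took 0.251 to 0.256% of the counts in Control libraries and 0.263 to 0.303% in IDPN libraries. The expressed set was led by a few genes. In size-factor normalized counts per kilobase of exon, Ephx1, Aldh1a1, Cyp2j6, Aldh1a3 and Aldh2 held 58.0% of the summed level of the 178. Summed over all members this level was 30931 ± 4268 (SD, n = 3) in Control and 29066 ± 1197 (SD, n = 3) in IDPN, less than the Control spread apart, and with total-count scaling it was 28279 in Control and 32001 in IDPN.

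**Figure D1:**
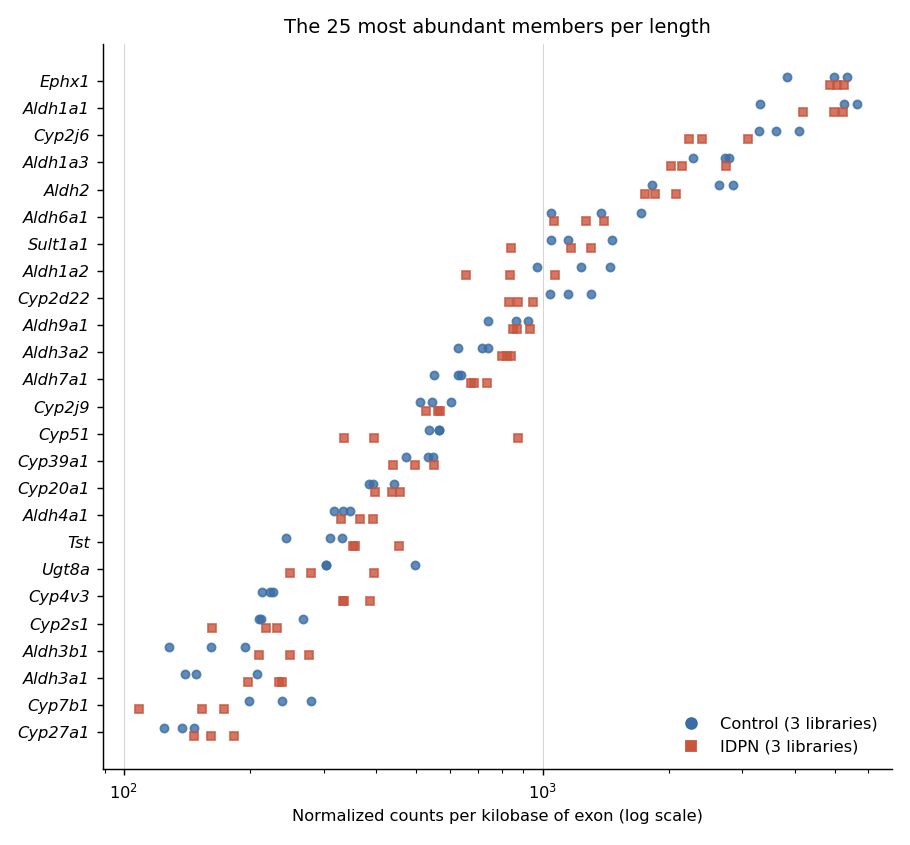
Normalized counts per kilobase of exon (log axis) of the 25 most abundant genes of the set, with 1 point per library (circles, 3 Control; squares, 3 IDPN). Ephx1 and Aldh1a1 stand at the top with overlapping groups, whereas the groups separate, for example, for Cyp2j6 (3283 to 4089 in Control, 2236 to 3090 in IDPN) and for Cyp4v3.

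Few of these enzymes differed between the IDPN and Control groups. A gene was called when its DESeq2 Padj was under 0.05 and its fold change above 1.5. Among the 65 tested, 6 were called (9.23%), where 5.74% of all 17680 genes tested were. Sult1e1, Sult5a1, Fmo2 and Cyp4v3 were upregulated (6.15%, against 2.32% of all genes), and Cyp7b1 and Cyp2e1 were downregulated (3.08%, against 3.42%). Over all genes DESeq2 called 410 higher and 604 lower, and with size factors set by total counts 607 higher and 214 lower. Estimates were above 0 for 33 genes and below 0 for 32. The median log2 fold change (IDPN over Control) was 0.0033, beside 0.015 over all genes tested. No Control library overlapped the IDPN range for 22 of the 65 genes (33.8%), beside 22.5% of all genes. Of these 22, 12 were higher and 10 lower in IDPN, where all genes gave 11.1% higher and 11.4% lower. An unadjusted DESeq2 p under 0.05 was found for 15 members. The matching share over all genes was not counted, so this number has no background to be read against. The edgeR quasi-likelihood test called the 4 upregulated genes and no other of the 62 members it tested, where it called 3.21% of all genes.

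**Figure D2:**
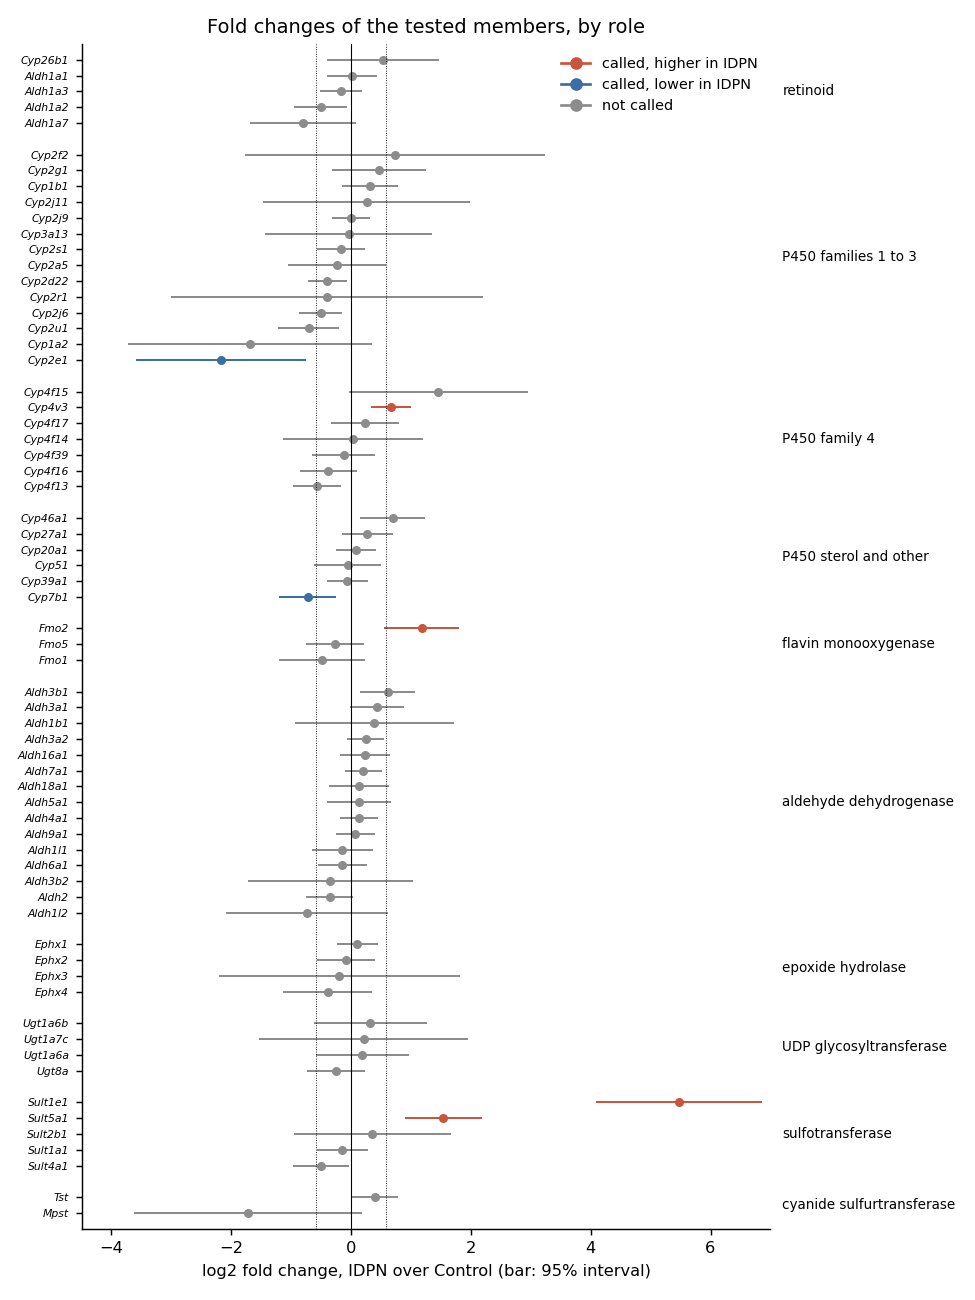
The log2 fold change of IDPN over Control (x axis) for the 65 genes with a DESeq2 Padj, grouped by role, with bars for the 95% interval and dotted lines at a fold change of 1.5. Sult1e1 lies alone at 5.48, and the intervals widen among genes with few counts, such as Mpst, Cyp1a2 and Ephx3.

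The promoters of the 4 upregulated genes are shown because both DESeq2 and edgeR called them and because 2 well-known xenobiotic response motifs can be looked for in them. Each sequence runs 5′ to 3′ on the gene's strand, from 250 bases before to 50 after the RefSeq start, on GRCm38.p6, and where a gene has several starts the one nearest its annotated 5′ end was taken. Capitals mark GCGTG, the core bound by the aryl hydrocarbon receptor, or TGACNNNGC, the antioxidant response element bound by Nrf2, on either strand.

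Sult1e1 (chr5:87591562-87591861, minus strand): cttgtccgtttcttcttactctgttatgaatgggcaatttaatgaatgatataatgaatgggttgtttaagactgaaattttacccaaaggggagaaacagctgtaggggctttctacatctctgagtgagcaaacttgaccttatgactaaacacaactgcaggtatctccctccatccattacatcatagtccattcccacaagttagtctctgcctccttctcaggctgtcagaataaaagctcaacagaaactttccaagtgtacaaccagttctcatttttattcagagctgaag

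Sult5a1 (chr8:123158231-123158530, minus strand): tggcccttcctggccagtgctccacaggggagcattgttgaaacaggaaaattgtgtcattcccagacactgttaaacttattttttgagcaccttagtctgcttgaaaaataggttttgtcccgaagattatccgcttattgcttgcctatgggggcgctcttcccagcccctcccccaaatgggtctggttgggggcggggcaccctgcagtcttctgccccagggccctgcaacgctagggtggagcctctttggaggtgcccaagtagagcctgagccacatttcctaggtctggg

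Fmo2 (chr1:162898709-162899008, minus strand): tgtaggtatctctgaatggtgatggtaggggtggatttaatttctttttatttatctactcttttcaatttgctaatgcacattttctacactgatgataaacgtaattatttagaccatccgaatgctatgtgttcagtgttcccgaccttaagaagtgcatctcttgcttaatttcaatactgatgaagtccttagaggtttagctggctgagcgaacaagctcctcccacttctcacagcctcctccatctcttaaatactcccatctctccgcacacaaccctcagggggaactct

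Cyp4v3 (chr8:45333114-45333413, minus strand): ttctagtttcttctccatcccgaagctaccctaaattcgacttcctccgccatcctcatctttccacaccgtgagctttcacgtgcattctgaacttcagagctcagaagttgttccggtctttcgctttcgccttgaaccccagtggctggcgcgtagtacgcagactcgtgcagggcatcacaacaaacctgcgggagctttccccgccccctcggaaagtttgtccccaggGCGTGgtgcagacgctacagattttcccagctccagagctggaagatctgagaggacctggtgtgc

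GCGTG was present in the Cyp4v3 window (1 match) and in none of the Sult1e1, Sult5a1 and Fmo2 windows, and TGACNNNGC was in none of the 4. RefSeq windows were found for 48 of the 65 tested genes. GCGTG occurred in 18 of these 48 (37.5%), beside 32.4% of all 32851 promoter windows of this length, and TGACNNNGC in 4 (8.33%), beside 12.4%. The member shares take 1 window per tested gene. Some of these windows lie far from the annotated 5′ end: 64366 bases for Aldh1l1, 25057 for Sult2b1 (with 1 GCGTG) and 3335 for Ephx1. The 32851 windows outnumber the 17680 genes tested, so the shares set beside each other come from unlike sets. The windows describe letters near the RefSeq start and do not show which factor binds there.

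P450s of families 1 to 3 carry most oxidation of foreign compounds in liver, and here most were not detected: 40 of 62 had 0 counts in every library, including all Cyp2b, Cyp2c and Cyp3a members other than Cyp2b19, Cyp2c55 and Cyp3a13. Of the 14 tested, 1 was called. Cyp2e1 (ENSMUSG00000025479.9, chromosome 7, 140763739 to 140774987), which oxidises ethanol and small nitriles, had normalized counts of 19.4, 68.1 and 30.2 in Control (libraries 1 to 3) and 14.1, 9.04 and 2.80 in IDPN (libraries 1 to 3). Every IDPN library lay under every Control library, at a low level. DESeq2 gave a log2 fold change of -2.17 (SE 0.72, DESeq2 Padj = 0.041). Raw counts summed to 109 in Control and 29 in IDPN, which is 4.37 times higher in Control after scaling (exact 95% interval 2.88 to 6.84, counting error only). This call was lost with edgeR (adjusted p = 0.132) and without Control 2, which at 68.1 set the Control mean (-1.52, DESeq2 Padj = 0.489), without Control 3 (0.0667), without IDPN 2 (0.116) and without IDPN 3 (0.209).

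Cyp2j6, the most abundant P450 of the set per kilobase, had 14742, 13037 and 11835 normalized counts in Control and 8665, 11141 and 8059 in IDPN. All IDPN libraries were lower, with IDPN 2 nearest to Control. Its log2 fold change of -0.51 (SE 0.17, DESeq2 Padj = 0.055) passed neither threshold, and without IDPN 2 it was called (-0.66, DESeq2 Padj = 0.0037). Its chromosome 4 neighbour Cyp2j9 stood at 1844 ± 158 (SD, n = 3) in Control and 1848 ± 74.5 in IDPN.

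Cyp2u1, a fatty acid hydroxylase, had 417, 447 and 427 in Control against 366, 197 and 225 in IDPN. The Control libraries were close together, and IDPN 1 lay between them and the other IDPN libraries. Its log2 fold change was -0.71 (SE 0.25, DESeq2 Padj = 0.070), and -1.02 without IDPN 1 (DESeq2 Padj = 9.6e-04), where it was called. Cyp1b1, a target of the aryl hydrocarbon receptor, overlapped between groups, with 268, 406 and 370.1 in Control and 502, 373 and 427 in IDPN (log2 fold change 0.32, 95% interval -0.13 to 0.77, DESeq2 Padj = 0.527). Cyp1a1, the classical target of that receptor, had between 0 and 2 raw counts per library and no Padj. Cyp2a5, known from nasal epithelium and liver, ranged from 41.8 to 71.6 in Control and from 42.0 to 57.1 in IDPN (-0.24, 95% interval -1.04 to 0.56, DESeq2 Padj = 0.852).

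Among the Fmo enzymes, which add oxygen to nitrogen and sulfur atoms, Fmo2 rose. Fmo2 (ENSMUSG00000040170.13, chromosome 1, 162874317 to 162898726) had 57.0, 65.8 and 75.6 normalized counts in Control, against 185, 132 and 133 in IDPN. The lowest IDPN library was above the highest Control library. Its fold change was 2.26, with a log2 fold change of 1.18 (SE 0.31, DESeq2 Padj = 0.0051; edgeR adjusted p = 0.048). Leaving out Control 1 (1.08, DESeq2 Padj = 0.052) or IDPN 1, the highest library (1.00, DESeq2 Padj = 0.107), ended the call. Fmo1, the next gene on the chromosome, had 110.4, 103 and 141 in Control and 112, 93.4 and 47.6 in IDPN, and Fmo5 had 329, 287 and 215 against 247, 218 and 223. Their groups overlapped, with log2 fold changes of -0.49 (SE 0.36, DESeq2 Padj = 0.555) and -0.27 (SE 0.24, DESeq2 Padj = 0.644). Fmo6 and Fmo9 had 0 counts in all libraries, and Fmo4 had 1.

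Family 4 P450s hydroxylate fatty acids, and 10 of 20 had 0 counts, the Cyp4a genes among them. Cyp4v3 (ENSMUSG00000079057.4, chromosome 8, 45304944 to 45333216), the counterpart of the human fatty acid hydroxylase CYP4V2, had 815, 853 and 863 in Control and 1274, 1275 and 1471 in IDPN. Both groups were tight and well apart. The fold change was 1.59 (log2 fold change 0.67, SE 0.16, DESeq2 Padj = 0.0015; edgeR adjusted p = 0.0198), close to the threshold of 1.5, and the call held without any single library (DESeq2 Padj 0.0014 to 0.0233). It was the only call among the 7 family 4 genes tested. Cyp4f13 had 708, 781 and 561 against 422, 500.0 and 463, with no overlap, and a log2 fold change of -0.57 (SE 0.20, DESeq2 Padj = 0.062). Leaving out Control 3 gave a call (-0.69, DESeq2 Padj = 0.0063).

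Of the P450s of sterol, steroid and bile acid metabolism, 1 of 6 tested was called. Cyp7b1 (ENSMUSG00000039519.6, chromosome 3, 18071950 to 18243338), which hydroxylates oxysterols, had 432, 517 and 606 in Control and 375, 332 and 235 in IDPN. The groups did not overlap. It was 1.65-fold lower in IDPN (log2 fold change -0.72, SE 0.23, DESeq2 Padj = 0.037). The call was lost with edgeR (adjusted p = 0.103) and without Control 2 (DESeq2 Padj = 0.157), Control 3 (0.141), IDPN 2 (0.0796) or IDPN 3 (0.223).

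Cyp51, lanosterol demethylase of cholesterol synthesis, was near 2457 ± 75.8 (SD, n = 3) in Control, while IDPN libraries had 1749, 3850.4 and 1481. IDPN 2 was above every Control library and the other IDPN libraries were under them. The log2 fold change was -0.06 (95% interval -0.61 to 0.49, DESeq2 Padj = 0.956), and without IDPN 2 Cyp51 was called as lower (-0.61, DESeq2 Padj = 0.012). The 21 listed genes of cholesterol synthesis and its control, read as a sum, had the same library apart: 72330.2 in IDPN 2, against 44707 and 46201 in IDPN 1 and 3 and 57859 to 68241 in Control. Exons of Cyp51 overlap those of Akap9 on the opposite strand (11819 counts in all), and the counting is not stated to use strand. Cyp27a1, the sterol 27-hydroxylase, had 299.6, 319.7 and 270.5 in Control and 399, 351 and 319 in IDPN (0.27, SE 0.21, DESeq2 Padj = 0.579). Cyp46a1, cholesterol 24-hydroxylase of neurons, had 115, 99.3 and 91.6 against 180.4, 159.6 and 154, without overlap and without passing the test (0.69, SE 0.27, DESeq2 Padj = 0.113); it is named after its values were seen.

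The retinoid enzymes were among the most abundant and none of the 5 tested was called by DESeq2 or edgeR, with 1 unadjusted DESeq2 p under 0.05. Their log2 fold changes ran from -0.81, in a gene not named here, to 0.53. Aldh1a1 (ENSMUSG00000053279.7, chromosome 19, 20492715 to 20643465), which makes retinoic acid from retinal, had 25944, 27753 and 16302 in Control and 20691, 24473 and 25819.8 in IDPN. Control 3 was the lowest library and the groups overlapped, with a log2 fold change of 0.02 (95% interval -0.38 to 0.42, DESeq2 Padj = 0.980). Aldh1a3 had 12875, 12616 and 10577 against 9374, 12659.8 and 9967 (-0.17, SE 0.17, DESeq2 Padj = 0.696). Aldh1a2 had 3284, 2805 and 2194 against 2429, 1897 and 1489. IDPN 1 lay above Control 3, and the log2 fold change was -0.51 (SE 0.21, DESeq2 Padj = 0.158), which was called without Control 3 (-0.65, DESeq2 Padj = 0.037) and without IDPN 1 (-0.70, DESeq2 Padj = 0.043). Cyp26b1, which degrades retinoic acid and marks part of the vestibular epithelium during development, was low, with 47.3, 26.5 and 24.9 in Control and 40.6, 46.2 and 55.1 in IDPN (0.53, 95% interval -0.38 to 1.44, DESeq2 Padj = 0.644). Its relatives Cyp26a1 and Cyp26c1 had at most 2 counts and 0 counts per library.

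The other aldehyde dehydrogenases, which clear aldehydes of lipid, amino acid and amine metabolism, were nearly all expressed: 15 of 16 were tested and none was called by DESeq2 or edgeR, with 1 unadjusted DESeq2 p under 0.05 (Aldh3b1). Aldh2, the mitochondrial acetaldehyde dehydrogenase, had 14621, 13499.8 and 9333 in Control and 9019, 10667 and 9507 in IDPN. Control 3 lay within the IDPN range, and the log2 fold change was -0.36 (95% interval -0.73 to 0.01, DESeq2 Padj = 0.312). Aldh3b1, active on medium and long chain aldehydes, had 329.9, 398 and 262 against 511, 431 and 567. The groups did not overlap, at 0.61 (SE 0.22, DESeq2 Padj = 0.082), and leaving out Control 2 gave a call (0.76, DESeq2 Padj = 0.048). Aldh3a1, the corneal crystallin enzyme, had 272, 289 and 404 against 463, 456 and 385 (0.43, SE 0.22, DESeq2 Padj = 0.304), with Control 3 above IDPN 3, and was called without Control 3 (0.64, DESeq2 Padj = 0.037). For 5 genes of the group (Aldh3a2, Aldh7a1, Aldh3b1, Aldh16a1 and Aldh1b1) every IDPN library was above every Control library and for none the reverse, where all genes gave 11.1% and 11.4%. Among the 14 tested P450s of families 1 to 3 the count ran the other way, with 0 higher and 5 lower. Other groups were mixed or at 0: 2 higher and 2 lower for P450 family 4, 2 and 1 for sulfotransferases. The retinoid enzymes, epoxide hydrolases and Ugt genes had 0 of either. Differences between groups in these counts were not tested. The means ± SD (n = 3) in Control and IDPN were 3901 ± 336 and 4615 ± 108 for Aldh3a2, 3142 ± 246 and 3623 ± 175 for Aldh7a1, 348 ± 42.9 and 409 ± 28.5 for Aldh16a1, and 13.5 ± 0.293 and 17.6 ± 3.71 for Aldh1b1. Exons of Aldh7a1 and Aldh16a1 overlap those of Phax (9496 counts in all) and Pih1d1 (3731) on the opposite strand, with the same limit as for Cyp51. Apart from Aldh3b1, these genes are named after their values were seen.

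Epoxide hydrolases open the reactive rings that P450s can form. Ephx1, the microsomal enzyme and the most abundant gene of the whole set per kilobase, had 9686, 10405 and 7474 in Control and 9472, 10232 and 9864 in IDPN. The IDPN libraries lay within the Control range (log2 fold change 0.10, 95% interval -0.22 to 0.43, DESeq2 Padj = 0.846). Ephx2, the soluble enzyme that acts on fatty acid epoxides, had 416, 405 and 254 against 358, 346 and 309 (-0.08, 95% interval -0.55 to 0.39, DESeq2 Padj = 0.924). None of the 4 was called by DESeq2 or edgeR, and 0 had an unadjusted DESeq2 p under 0.05.

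Conjugation with sugar was sparsely represented, since 17 of 22 Ugt genes had 0 counts, among them all of Ugt2 and Ugt3. The most abundant was Ugt8a, which is not a drug enzyme but makes the galactolipids of myelin. It had 2245, 1383 and 1379.9 in Control and 1799, 1134 and 1270.1 in IDPN, with overlapping groups (-0.25, SE 0.24, DESeq2 Padj = 0.673). Control 1 was its highest library and also that of the summed Schwann cell markers (199778, against 79100.1 to 105908 in the others); whether nerve content set the Ugt8a level was not tested. The other Ugt genes tested were Ugt1a6a (76.9 ± 6.97 in Control, 87.3 ± 35.8 in IDPN, SD, n = 3), Ugt1a6b (33.5 ± 3.80 and 42.0 ± 13.9) and Ugt1a7c (10.0 ± 4.73 and 11.7 ± 6.58), which share their last exons with each other, so the split of reads among them is uncertain. None of the 4 Ugt genes tested was called by DESeq2 or edgeR, and 0 had an unadjusted DESeq2 p under 0.05.

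Conjugation with sulfate showed the strongest change of the set. Sult1e1, estrogen sulfotransferase (ENSMUSG00000029272.8, chromosome 5, 87575969 to 87591594), had 5, 1 and 3 raw counts in Control, with 65, 118 and 278 in IDPN, or 6.06, 1.15 and 2.67 against 53.8, 118 and 259 normalized counts. It was close to absent in Control and present in all IDPN libraries, which themselves spread widely, with IDPN 1 lowest and IDPN 3 highest. The log2 fold change was 5.48 (SE 0.70, DESeq2 Padj = 1.7e-12; edgeR adjusted p = 0.0044). The scaled ratio of summed counts, 461 to 9, was 44.0 (exact 95% interval 23.0 to 96.9, counting error only). The size rests on few Control counts: it was 6.17 without Control 1 and 4.73 without IDPN 3, and the call held in each of the 13 alternatives. Alb, the defining transcript of hepatocytes, had 0 counts in all libraries. Apoa1 had 1, 10 and 4 raw counts in Control and 11, 6 and 10 in IDPN, and Serpina1a had 1 count, in Control 3. Ttr, which liver also makes, had 3.64, 1249 and 1629 normalized counts in Control and 1494, 1444 and 6084 in IDPN. It was highest in IDPN 3, the library with most Sult1e1, while Control 2 and 3 were near the level of IDPN 1 and 2. The part of Ttr in the Sult1e1 difference was not tested.

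Sult5a1 (ENSMUSG00000000739.14, chromosome 8, 123140192 to 123158315), a family member whose substrates are little known, had 92.2, 195 and 77.4 in Control and 324, 333 and 400.4 in IDPN. All IDPN libraries were above Control 2, the highest Control library. The fold change was 2.91 (log2 fold change 1.54, SE 0.32, DESeq2 Padj = 1.0e-04; edgeR adjusted p = 0.031). The call held without any single library, from 1.29 without Control 3 to 2.06 without Control 2. Sult1a1, the main phenol sulfotransferase and the most abundant of the family per kilobase, had 1732, 2209 and 1582 against 1967, 1266 and 1758 (-0.15, SE 0.21, DESeq2 Padj = 0.812). Its exons overlap those of Sgf29 on the opposite strand (3249 counts in all), whose reads cannot be told apart from its own. Sult4a1, a form of neurons, had 292, 249 and 339.9 against 203, 224 and 196, with no overlap and no call (-0.50, SE 0.23, DESeq2 Padj = 0.205). Of the 21 Sult genes, 11 had 0 counts and 5 were tested.

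**Figure D3:**
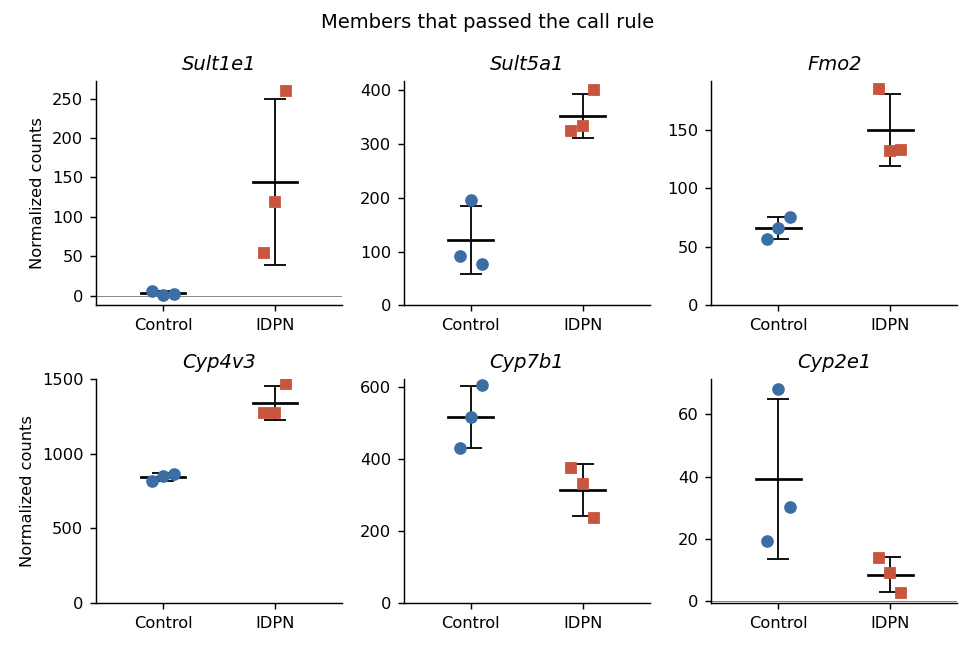
Normalized counts (y axis, from 0) of the 6 called genes in Control (circles) and IDPN (squares), 1 point per library, with the mean (line) and SD (bar) of n = 3. No gene's groups overlap, and the spread is wide for Sult1e1 in IDPN (53.8 to 259) and for Cyp2e1 in Control (19.4 to 68.1).

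The sulfurtransferases that convert cyanide lie head to head on chromosome 15, with 509 bp between their starts. Tst (78399556 to 78405907) had 984, 1048 and 772 in Control and 1130.5, 1434 and 1118 in IDPN. Every IDPN library was above every Control library, but the log2 fold change of 0.39 (95% interval 0.02 to 0.77, DESeq2 Padj = 0.257) passed neither threshold. With sizes set by total counts it was called (0.65, DESeq2 Padj = 0.030). That scaling moved the median of all genes by 0.25 upward, and a change of Tst is relative to the typical gene in the first case and to total counts in the second. Mpst (78406416 to 78414013) was sparse, with 10.9, 21.9 and 7.12 against 3.31, 6.02 and 2.80. Its IDPN libraries were all lower, and its raw counts summed to 36 in Control and 13 in IDPN. The log2 fold change was -1.72 (95% interval -3.61 to 0.17, DESeq2 Padj = 0.364). Per kilobase, Tst stood at 295 in Control and 388 in IDPN, and Mpst at 6.22 and 1.89.

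Genes that work with these enzymes were read from lists of 144 partners, of which 127 were tested. DESeq2 called 2 as higher and 6 as lower (6.30%, against 5.74% of all genes), and their median log2 fold change was -0.07. None of the 14 tested genes of cyanide and sulfide handling was called by DESeq2 or edgeR, with 1 unadjusted DESeq2 p under 0.05. These include Sqor, which oxidises sulfide (0.08, SE 0.16, DESeq2 Padj = 0.888), Ethe1, a persulfide dioxygenase (-0.01, SE 0.19, DESeq2 Padj = 0.989), and Cth, which makes cysteine and sulfide (0.09, SE 0.37, DESeq2 Padj = 0.945). None of the 15 electron donors and heme enzymes that serve P450s was called by either tool, with 1 unadjusted DESeq2 p under 0.05. Por, the reductase that all microsomal P450s need, had 12775, 14577 and 9979 in Control and 10927, 16722 and 13492 in IDPN (0.14, 95% interval -0.25 to 0.53, DESeq2 Padj = 0.812).

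None of the 13 tested xenobiotic receptors and regulators was called by either tool, with 1 unadjusted DESeq2 p under 0.05. Ahr had 178, 178 and 219 against 173, 145 and 243, and Nfe2l2, which encodes Nrf2, had 3559.7, 4244 and 3093 against 3975, 4433 and 3733. Both overlapped between groups (DESeq2 Padj = 0.970 and 0.735). Nr1i2, the pregnane X receptor that controls Cyp3a genes in liver, was at 0 in Control and had counts in IDPN 3 alone, and Hnf4a had 0 counts.

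The partner calls fell on other steps. Dpyd, which degrades pyrimidines and fluorouracil, had 399, 298 and 503 in Control and 120.0, 54.2 and 83.1 in IDPN, a log2 fold change of -2.22 (SE 0.31, DESeq2 Padj = 1.6e-10). Inmt, an amine N-methyltransferase, had 479, 492 and 279 against 1140.4, 1185 and 1579 (1.65, SE 0.24, DESeq2 Padj = 9.2e-10). Both were called under each of the 13 alternatives. Neither gene had overlapping groups.

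Among the retinoid partners, Rarb, a retinoic acid receptor, had 2928, 2031 and 2278 in Control and 1028, 893 and 1011 in IDPN, a log2 fold change of -1.30 (SE 0.18, DESeq2 Padj = 2.7e-10), also called under each of the 13 alternatives. Dhrs3, which reduces retinal to retinol, had 9323, 4744 and 4692 against 3309, 3416 and 3947 (-0.81, SE 0.24, DESeq2 Padj = 0.018). Control 1 stood far above the other Control libraries, and the call was lost without it (-0.41, DESeq2 Padj = 0.197), without IDPN 1 (0.117), IDPN 2 (0.0762) or IDPN 3 (0.0584), with edgeR (adjusted p = 0.132) and with total-count size factors (DESeq2 Padj = 0.233). Hsd17b7, of cholesterol synthesis, fell from 7904 ± 656 (SD, n = 3) to 4519 ± 263 (-0.81, SE 0.15, DESeq2 Padj = 4.3e-06, edgeR adjusted p = 0.0187). Its call was lost with total-count size factors (-0.55, DESeq2 Padj = 0.0944) and in the test against a fold change of 1.5. Among the called partners, only Dpyd, Inmt and Rarb kept their calls in that fold-change test.

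The remaining partner calls were lost in most fits that left out a library and with edgeR (adjusted p = 0.0938 for Akr1b8, 0.109 for Nat2 and 0.102 for Slco3a1), and those of Nat2 and Slco3a1 also with total-count size factors (DESeq2 Padj = 0.258 and 0.407). Akr1b8, an aldo-keto reductase, ranged from 91.6 to 107 in Control and from 146 to 193 in IDPN (0.82, SE 0.27, DESeq2 Padj = 0.047), and the call was lost without any 1 of the 6 libraries (0.0647 without IDPN 1 to 0.229 without IDPN 3). Nat2, an arylamine acetyltransferase, had 172 to 178 against 47.2 to 108 (-1.06, SE 0.33, DESeq2 Padj = 0.024), and the call held without IDPN 1 and was lost without any other library (0.0596 without IDPN 3 to 0.132 without Control 2). Slco3a1, an organic anion transporter, had 935 to 1475 against 655 to 821 (-0.68, SE 0.21, DESeq2 Padj = 0.030), and the call held without Control 1 or IDPN 1 and was lost without any other library (0.0594 without Control 2 to 0.185 without IDPN 3).

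**Figure D4:**
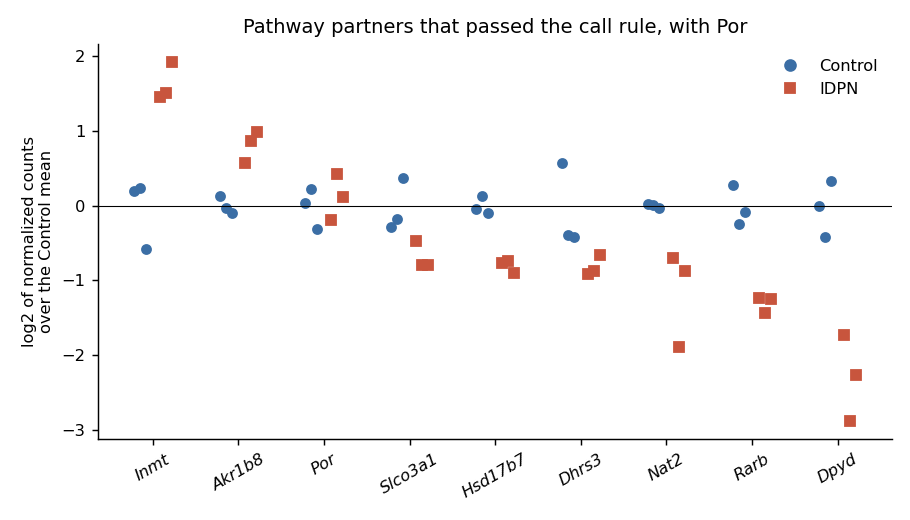
The 8 called partner genes and Por, as log2 of normalized counts over the Control mean (y axis), with 1 point per library (circles, Control; squares, IDPN). Inmt and Akr1b8 lie above 0 in IDPN and the other called genes under it, while Por straddles 0 in both groups.

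Cell type markers moved between the groups beside these enzymes. Of 10 HC markers, 7 were called as lower by DESeq2. Myo7a, found in all HCs, was not called (0.01, SE 0.23, DESeq2 Padj = 0.987). The summed normalized counts of the 10 ran from 778042 to 1028803 in Control libraries and from 571739 to 773111 in IDPN libraries, and nearly all of the sum was Spp1, which was not among the 7 (-0.53, SE 0.18, DESeq2 Padj = 0.0502) and had 758872 in Control 3 and 762993 in IDPN 2. Of 5 erythroid markers, 4 were called as higher by DESeq2 and none by edgeR, with sums of 16166 to 36635 in Control libraries and 34689 to 49091 in IDPN libraries. Of the 6 supporting cell markers, DESeq2 called Sparcl1 as lower and edgeR called none, and Lfng had an estimate of 0.66 (DESeq2 Padj = 0.369). Of the 4 endothelial markers, Kdr was called as lower by both tools. The others were not called, with estimates of -0.01 for Pecam1, -0.11 for Cdh5 and -0.14 for Cldn5 (DESeq2 Padj = 0.987, 0.935 and 0.880). Among the 4 Schwann cell markers, Sox10 was called as higher by both tools, while the estimates for Mbp and Pmp22 were -0.60 and -0.67 (DESeq2 Padj = 0.134 and 0.136). None of the markers of dark and transitional cells (4), macrophages (6), stroma (5) or melanocytes (5) was called by DESeq2 or edgeR, with 2, 2, 1 and 3 unadjusted DESeq2 p under 0.05. All 5 melanocyte estimates were above 0, with sums of 6056 to 14055 in Control libraries and 14340 to 21804 in IDPN libraries. Estimates were above 0 for all 5 stroma markers and below 0 for all 4 of dark and transitional cells. For macrophages, 4 were above 0 and 2 below. The sums of these last 3 lists overlapped between groups. The part of cell composition in the enzyme differences was not tested.

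**Figure D5:**
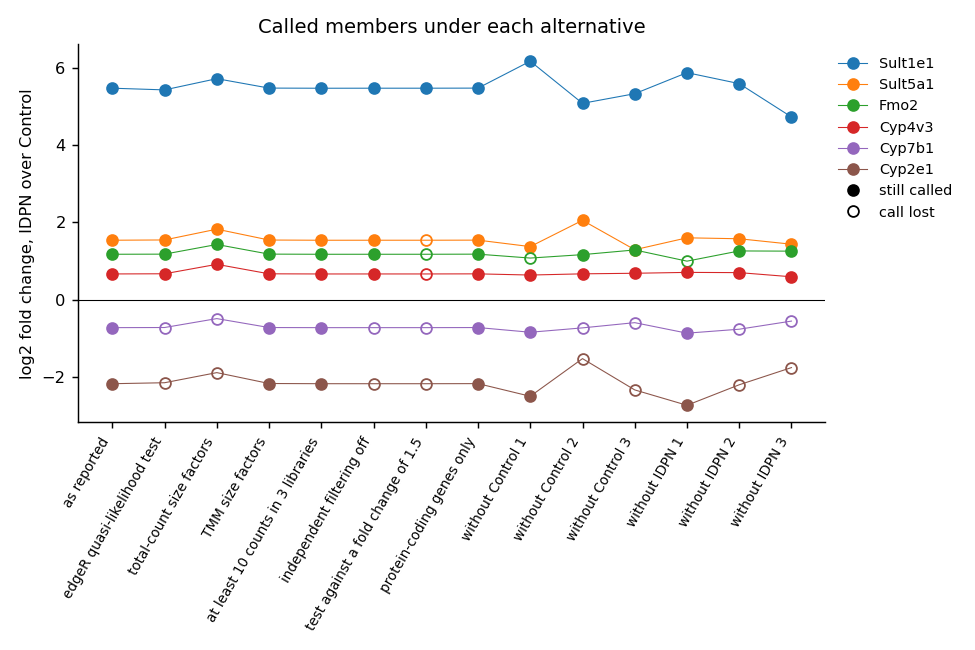
The log2 fold change (y axis) of the 6 called genes as reported and under 13 alternative fits (x axis), with filled points where the gene is called and open points where the call is lost. Sult1e1 is filled throughout, Sult5a1 and Cyp4v3 are open under 1 alternative (the test against a fold change of 1.5), and Cyp7b1 and Cyp2e1 are open under 8 each.

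Depth bounds what the undetected genes can hold. Libraries had 40474847 to 43566332 counts, so a gene at 0 in a library was under 3 counts, the limit that counting error alone sets. A further 26 genes had counts but too few for a Padj, among them Cyp1a1, Cyp17a1, Cyp19a1, Cyp7a1, Cyp24a1 and Sult1c2, the last with 0 counts in Control and 6, 1 and 2 raw counts in IDPN.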

How the data were processed

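The authors aligned paired reads to the GRCm38 genome with STAR 2.5.3a and estimated counts per gene with RSEM 2.3.0 on GENCODE annotation, after SMART-seq2 library preparation from 6 to 11 ng of RNA (oligo-dT priming, 8 and 12 PCR cycles). The deposited values are these expected counts, as whole numbers without normalization or filter. RSEM divides reads among similar genes, and no molecular identifiers were used, so intervals from counts cover counting error only. DESeq2 1.42.0 (R 4.3.3) was fitted on all 6 libraries with no covariate, following the study's thresholds (FDR under 0.05, fold change above 1.5), with p-values adjusted over the whole table. Test, size factors, count filter, independent filtering, fold-change test, gene set and left-out libraries were varied in 13 alternatives, including edgeR 4.0.16. Exon lengths and coordinates came from GENCODE M21 on the same build, and promoter windows from RefSeq (GRCm38.p6). Groups were read from the labels, which describe separate animals. The text names members called by DESeq2, members called by edgeR or with a library left out (mean of at least 100 normalized counts), a list of enzymes given whatever their values, the 5 highest per kilobase, and called partners; other genes are named to account for a group or after their values were seen. The members, gene lists and tests were chosen with earlier results of these data known. The code was tested on simulated data.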

Additional observations from a re-analysis of the deposited data

How the results depend on the processing

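Of the 13 alternatives, TMM size factors, the filter of 10 counts in 3 libraries and the restriction to protein-coding genes kept 4 higher and 2 lower members. Lower members numbered 0 with edgeR, with total-count size factors, with independent filtering off and when testing against a fold change of 1.5, and 0 to 4 when a library was left out. Without Control 3 the lower members were Aldh1a2 and Cyp4f13, and without IDPN 2 they were Cyp2j6 and Cyp51. Higher members numbered 7 with total-count size factors (Aldh3b1, Cyp46a1 and Tst were added) and 1 against a fold change of 1.5. Over all genes, edgeR called 166 higher and 357 lower against 410 and 604 with DESeq2, the fold-change test 34 and 111, total-count factors 607 and 214, and fits without a library 234 to 612 higher and 436 to 722 lower. Total-count factors also moved the members' median log2 fold change to 0.25 and their summed level per kilobase to 28279 in Control and 32001 in IDPN, the reverse order of 30931 and 29066. Called partners numbered 1 higher with edgeR, with filtering off and with the fold-change test, and 1 to 3 without a library; lower ones numbered 3 with edgeR, 2 with total-count factors, 2 with the fold-change test and 3 to 8 without a library. Signs turned with total-count factors for Aldh1a3 (0.077), Cyp2a5 (0.048), Cyp51 (0.14), Ephx2 (0.21), Fmo5 (0.015), Sult1a1 (0.15) and Ugt8a (0.053), none of them called. They also turned within the range over fits without a library for Aldh1a1 (-0.18 to 0.16), Cyp51 (-0.61 to 0.19), Ephx1 (-0.027 to 0.19), Ephx2 (-0.28 to 0.036), Por (-0.027 to 0.29), Sult1a1 (-0.28 to 0.018) and Ugt8a (-0.47 to 0.017), and no fit that turned a sign gave a call. The cause was not tested. No paired analysis was possible because the labels carry no shared replicate number. With a library left out, its group keeps 2 samples.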
